A study of Mus musculus with 19 samples.

Results

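Cholesterol biosynthesis and its control by the transcription factor SREBP2 (gene Srebf2) are described here through 27 genes in mouse liver. The genes were listed by name: 21 enzymes from acetyl-CoA to cholesterol, 4 regulators (Insig1, Insig2, Scap, Srebf2) and 2 sterol-handling proteins (Stard4, Tmem97). Measured values were not part of that rule, though the list was chosen with earlier results of these data known. Enzymes off the list are reported below only as neighbours in pathway or sequence, and not as part of this route. All 27 were found among 35498 genes, and all 27 passed the filter on low counts, which left 13594 genes for testing.

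The measurements come from 19 bulk mRNA libraries of liver, all labelled male, C57Bl/J6 and 24 weeks. There were 5 libraries of CTRL, 5 of WSD, 5 of CTRL+beta-Glucan and 4 of WSD+beta-Glucan. The series title ties WSD to fatty liver disease and the beta-glucan to oat in the diet. What WSD stands for is not in the labels, which also give no dose, no start of feeding and no age apart from the 24 weeks. Nor do they say that each library is a separate mouse, so a p-value here measures the spread between libraries, which may be technical.

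Cells make cholesterol from acetyl-CoA by way of mevalonate, isopentenyl units, farnesyl diphosphate, squalene and lanosterol. When sterols in the endoplasmic reticulum are plentiful, INSIG proteins hold SCAP and SREBP2 there. When sterols are scarce, SCAP escorts SREBP2 to the Golgi, where it is cut, and the released fragment enters the nucleus and turns on the pathway's genes. The liver is a main site of this synthesis and also takes up, stores, exports and converts cholesterol to bile acids.

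Library totals ran from 17253823 to 23450232 estimated reads. Of 10 hepatocyte marker genes, none was at 0 in all libraries of a group. Summed hepatocyte marker levels were 37940 to 45970 CPM (counts per 1000000 reads of a library, with library sizes scaled by TMM, the trimmed mean of M values) in CTRL and 26250 to 31850 in WSD. Markers of macrophages and monocytes summed to 65.8 to 188 CPM in CTRL, 665 to 867 in WSD and 469 to 553 in WSD+beta-Glucan. The library titles end in a number after the letter S, and the number 2 occurs in both a WSD and a WSD+beta-Glucan title. The titles 39 and 40 are replicates 1 and 2 of CTRL+beta-Glucan and carry the S numbers 3 and 1, and the title 37 is replicate 1 of WSD+beta-Glucan with the S number 2. Replicates 1 and 2 of CTRL+beta-Glucan were both above the other 3 of their group for 17 of the 27 genes, and both below for 0. Over all tested genes these shares were 18.3% above and 16.9% below. Several counts over the 27 genes that involve these libraries are given below with and without them. Values without them are given for some of the genes whose call or direction changed.

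The proximal promoters of the listed genes share short motifs. A RefSeq window from 250 bases before to 50 bases after a start (build GRCm38.p6) was found for 23 of the 27 genes, and not for Fdps, Fdft1, Sqle and Stard4. Both strands of each window were searched for a sterol regulatory element written TCACNCCAC, the same element less its last letter (TCACNCCA, which every TCACNCCAC contains), the NF-Y box CCAAT and the Sp1 box GGGCGG. NF-Y and Sp1 are known partners of SREBP at sterol-regulated promoters. CCAAT stood in windows of 20 of the 23 genes, against 41.1% of the 27025 genes with a window. GGGCGG also stood in 20 of 23, against 38.2% of all genes. TCACNCCA was found in 3, Hmgcs1, Msmo1 and Srebf2, against 4.97% of all genes, and TCACNCCAC in Hmgcs1 alone, against 1.44%. Shown are the 250 bases before the start of these 3 and of Aacs, the listed gene that was higher in WSD and whose window held none of the 4 motifs. Capitals mark matches to any of the motifs on either strand (ATTGG and CCGCCC are CCAAT and GGGCGG read on the other strand). A match is a run of letters, not a measured binding site, and a link between motifs and fold changes was not tested.
Hmgcs1 (chr13:119690101-119690350, plus strand): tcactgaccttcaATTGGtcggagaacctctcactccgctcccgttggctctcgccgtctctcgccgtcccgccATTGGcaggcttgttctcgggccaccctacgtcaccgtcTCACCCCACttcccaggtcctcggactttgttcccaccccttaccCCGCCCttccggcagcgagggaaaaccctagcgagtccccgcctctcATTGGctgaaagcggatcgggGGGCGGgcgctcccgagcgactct
Msmo1 (chr8:64733579-64733828, minus strand): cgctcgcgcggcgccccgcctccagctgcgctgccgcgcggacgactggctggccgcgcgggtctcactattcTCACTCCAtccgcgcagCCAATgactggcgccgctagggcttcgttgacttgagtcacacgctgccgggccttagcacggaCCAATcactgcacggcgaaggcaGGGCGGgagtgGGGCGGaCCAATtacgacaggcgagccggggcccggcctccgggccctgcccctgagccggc
Srebf2 (chr15:82147019-82147268, plus strand): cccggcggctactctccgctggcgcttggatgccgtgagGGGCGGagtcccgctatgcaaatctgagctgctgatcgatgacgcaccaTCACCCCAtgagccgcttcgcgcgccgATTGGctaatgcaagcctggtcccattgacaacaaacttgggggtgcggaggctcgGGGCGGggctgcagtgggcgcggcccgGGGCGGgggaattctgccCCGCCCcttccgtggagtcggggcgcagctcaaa
Aacs (chr5:125475623-125475872, plus strand): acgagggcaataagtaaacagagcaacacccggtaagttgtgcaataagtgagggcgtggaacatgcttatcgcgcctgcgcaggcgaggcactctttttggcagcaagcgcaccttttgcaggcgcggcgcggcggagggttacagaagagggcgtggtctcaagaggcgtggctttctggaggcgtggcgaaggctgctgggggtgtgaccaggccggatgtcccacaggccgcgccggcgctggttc
The element in Hmgcs1 began 137 bases before the start, that in Msmo1 177 bases before and that in Srebf2 162 bases before. In Hmgcs1 the farthest CCAAT box lay 237 bases before the start.

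WSD was compared with CTRL to see how the pathway stood in the WSD liver without beta-glucan. Of the 27 genes, 20 were lower and 1 was higher (edgeR quasi-likelihood F test over 13594 genes, Benjamini-Hochberg adjusted p under 0.05), against 27.1% of all tested genes lower and 26.0% higher. Without TMM scaling, on plain library sizes, 17 were lower and 4 higher (Aacs, Acat2, Ggps1 and Sc5d). The median log2 fold change of the 27 was -1.07, beside -0.04 over all tested genes, and 14 genes lay under -1. On plain library sizes both medians moved up, to -0.60 for the 27 genes and 0.43 for all genes, and the calls over all genes moved from 3680 lower and 3528 higher to 617 lower and 7874 higher. Fold changes below are therefore relative to TMM scaling. The libraries of WSD all lay below those of CTRL for 19 of the 27 genes, against 18.4% of all tested genes, and Insig2 was the gene that fell with overlapping groups. In bulk tissue, fewer cells of a type and less RNA per cell cannot be told apart. Of the 10 hepatocyte markers, 9 were lower in WSD with a list median of -0.65, and 2 of the 10 lay under -1. All 10 macrophage and monocyte markers were higher, with a list median of 2.63, and so were all 6 stellate cell and fibroblast markers, with a median of 2.90. Called higher were also 5 of 6 endothelial, 2 of 5 cholangiocyte and 3 of 6 T and B cell markers, with list medians of 0.83, 1.31 and 1.13. The part of this shift in the results for the 27 genes was not tested.

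**Figure D1:**
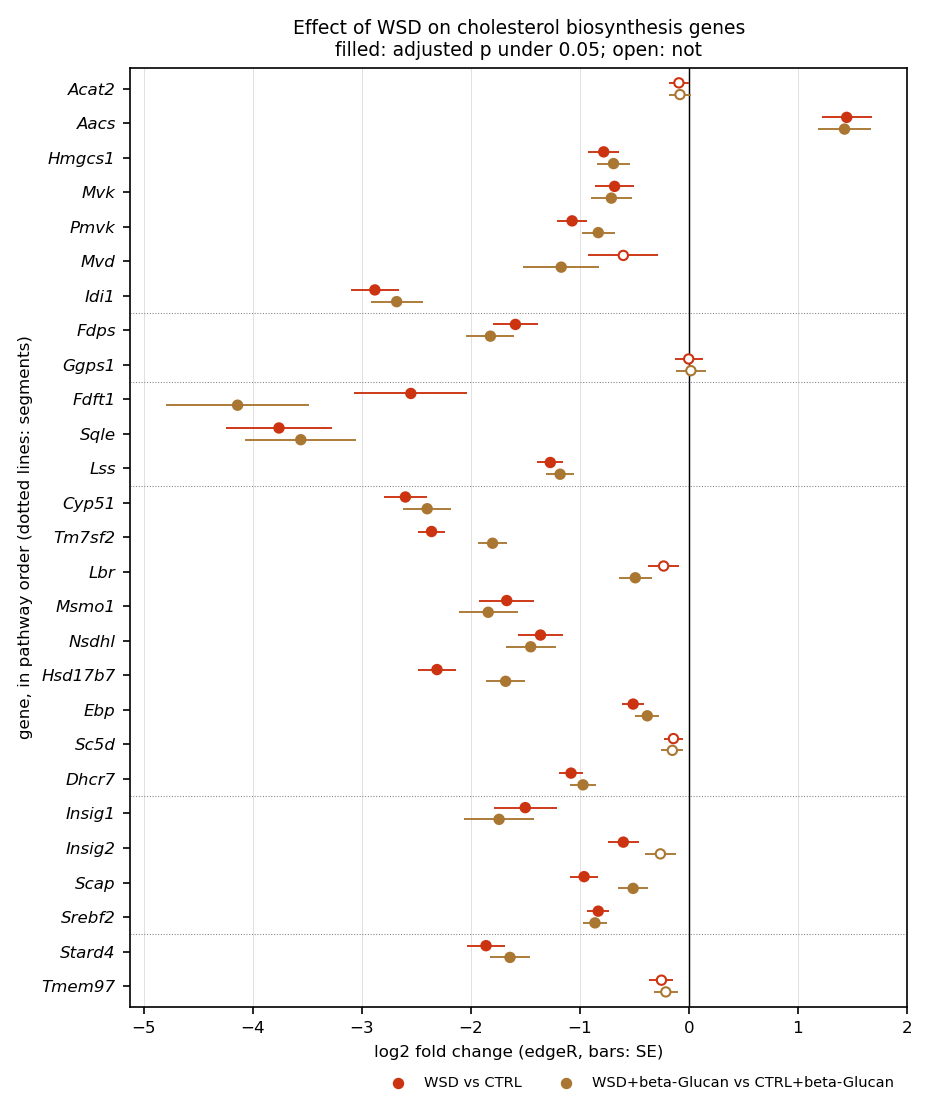
Log2 fold change (x axis, bars are the SE from edgeR) of each of the 27 genes (y axis, in pathway order, dotted lines between segments) for WSD against CTRL and for WSD+beta-Glucan against CTRL+beta-Glucan. Filled points passed an adjusted p of 0.05; Sqle has the lowest value for WSD against CTRL, -3.76, and Aacs is the 1 gene called on the right of 0, while on plain library sizes Acat2, Ggps1, Lbr, Sc5d and Tmem97 also lie right of 0.

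From acetyl-CoA to the isopentenyl units, 4 of 7 genes fell and 1 rose. Hmgcs1 joins acetyl-CoA and acetoacetyl-CoA to HMG-CoA. Its CPM was 110.1, 63.1, 78.2, 71.2 and 88.2 in CTRL replicates 1 to 5 and 54.02, 52.5, 40.1, 49.3 and 42.7 in WSD replicates 1 to 5, the order used below. Each WSD library was under each CTRL library, and the log2 fold change was -0.78 ± 0.14 (SE; adjusted p = 9.12e-05, edgeR). Mvk and Pmvk add the phosphate groups to mevalonate. Mvk fell by 0.68 ± 0.18 on the log2 scale (adjusted p = 0.00291, edgeR), a call not made on plain library sizes (adjusted p = 0.265), and Pmvk fell by 1.07 ± 0.14 (adjusted p = 4.76e-06). Pmvk ran from 13.4 to 24.4 CPM in CTRL and from 8.44 to 9.43 in WSD.

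Idi1, which interconverts the isopentenyl and dimethylallyl forms, had the lowest fold change of this stretch. It stood at 31.2, 16.4, 24.9, 20.7 and 32.3 CPM in CTRL and at 2.904, 4.004, 2.98, 3.43 and 3.7 in WSD, so the groups were far apart. The log2 fold change was -2.88 ± 0.22 (adjusted p = 8.95e-09, edgeR), and adding the reads of its near-identical pseudogenes, which held 155 reads in all over the 19 libraries, gave -2.82. Mvd, which decarboxylates mevalonate diphosphate, was low and scattered. Its CPM was 3.43, 1.65, 5.07, 5.03 and 4.22 in CTRL and 2.95, 2.68, 2.34, 1.88 and 2.93 in WSD, and the groups overlapped. Its log2 fold change was -0.60 ± 0.32 (adjusted p = 0.125), and without CTRL replicate 2, the lowest CTRL library, it was -0.79 (adjusted p = 0.0347).

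Aacs and Acat2 both make acetoacetyl-CoA, Aacs from the ketone body acetoacetate and Acat2 from acetyl-CoA. Aacs went the other way from the 20 genes called lower. It read 4.55, 9.69, 5.54, 7.39 and 5.15 CPM in CTRL and 18.5, 19.7, 15.1, 15.9 and 19.03 in WSD, where each library was above every CTRL library. The log2 fold change was 1.45 ± 0.23 (adjusted p = 3.58e-05, edgeR). Acat2 read 36.4, 34.2, 38.5, 38.1 and 31.8 CPM in CTRL and 36.5, 32.4, 34.05, 35.4 and 29.7 in WSD, with a log2 fold change of -0.09 ± 0.09 (adjusted p = 0.409). On plain library sizes this turned to 0.37, and Acat2 was called higher (adjusted p = 0.00108, edgeR). Its value is uncertain. The neighbour in sequence Acat3 shares 97.698% of 1477 bases with it on the same strand and held 127070 reads over all libraries. With the reads of both genes added, the log2 fold change was 0.49 ± 0.13 (adjusted p = 0.00466, edgeR). Most of that sum is Acat3, at a mean of 255 CPM in CTRL and 375 in WSD, beside 35.8 and 33.6 for Acat2. The merged value therefore mainly follows Acat3 and does not give the direction of Acat2.

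At the prenyl diphosphates, 1 of 2 genes fell. Fdps, which builds farnesyl diphosphate, read 39.1, 27.5, 44.8, 40.99 and 50.3 CPM in CTRL and 14.9, 14.1, 10.2, 12.8 and 15.3 in WSD. The groups did not overlap, and the log2 fold change was -1.59 ± 0.21 (adjusted p = 4.5e-06, edgeR). Fdps also changed in transcript makeup as estimated: transcript Fdps-203 held 19.3% ± 4.48 of the gene's reads in CTRL and 4.41% ± 2.78 in WSD (SD, n = 5 each), a difference that was not tested. Ggps1 makes geranylgeranyl diphosphate, which leaves the sterol route for protein prenylation. It ran from 4.20 to 6.83 CPM in CTRL and from 4.39 to 5.67 in WSD, with a log2 fold change of 0.00 ± 0.13 (adjusted p = 0.98). On plain library sizes this read 0.46, and Ggps1 was called higher (adjusted p = 0.00789, edgeR).

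All 3 genes that make squalene and lanosterol fell. Sqle, the epoxidase that puts oxygen on squalene, had the lowest fold change of the list. Its CPM was 11.3, 5.67, 11.6, 10.2 and 14.2 in CTRL and 1.198, 0.289, 0.2596, 0.641 and 1.504 in WSD, which is 6 to 37 reads per WSD library. The highest WSD library stayed under the lowest CTRL library, and the log2 fold change was -3.76 ± 0.49 (adjusted p = 6.78e-06, edgeR). Relative spread was also widest here, with a coefficient of variation of 71.3% in WSD, beside a median of 12.4% over the 27 genes. Lss, which folds oxidosqualene into lanosterol, read 18.9, 17.3, 20.1, 17.6 and 22.1 CPM in CTRL and 6.96, 8.92, 8.696, 6.82 and 8.38 in WSD. Its log2 fold change was -1.27 ± 0.12 (adjusted p = 5.04e-08), with groups apart.

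Fdft1, squalene synthase, also fell in the gene totals, but its reads are uncertain. It read 39.4, 22.8, 22.3, 14.7 and 28.9 CPM in CTRL and 6.45, 0.702, 1.73, 7.004 and 6.098 in WSD, with a log2 fold change of -2.55 ± 0.52 (adjusted p = 0.000651, edgeR). Its main transcript, Fdft1-201, has 771 bases that also belong, on the opposite strand, to Ctsb, a lysosomal protease. The library type used in counting is not given in the sources used here. Ctsb read 415 to 536 CPM in CTRL and 872 to 1033 in WSD. Estimated reads of Fdft1-201 were 603, 330, 305, 167 and 468 in CTRL and 102, 0, 0, 149 and 129 in WSD, and all 4 WSD+beta-Glucan libraries were listed at 0. Where a count is 0, up to 3 reads cannot be told from none, by counting error alone. These values are also estimates, since reads are split between overlapping transcripts. The error of that split can be larger and was not tested. The other main transcript, Fdft1-204, ranged from 43 to 83 reads in CTRL, 3 to 32 in WSD and 12 to 25 in WSD+beta-Glucan. Both transcripts were thus lower in every WSD library than in every CTRL library. Between WSD and WSD+beta-Glucan the reads of both overlapped: Fdft1-201 was at 0 in 2 libraries of WSD and in all 4 of WSD+beta-Glucan, and the range of Fdft1-204 in WSD+beta-Glucan lay within its range in WSD. The part of Ctsb reads in these values was not tested.

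**Figure D2:**
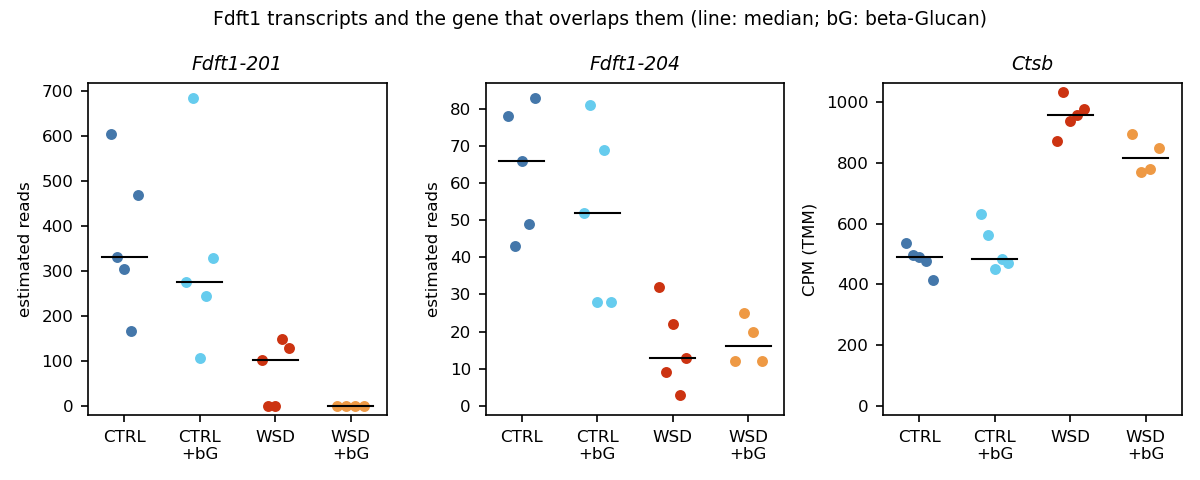
Estimated reads of the transcripts Fdft1-201 and Fdft1-204 and CPM of Ctsb (y axes) in each library (points, by group on the x axis; lines are group medians). Fdft1-201 is at 0 in 2 WSD libraries and in all 4 WSD+beta-Glucan libraries, Fdft1-204 is above 0 in all of these, and Ctsb is highest in WSD.

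Between lanosterol and cholesterol, 7 of 9 genes fell, with a segment median of -1.36. Cyp51 removes the first methyl group of lanosterol. It read 48.03, 27.4, 41.3, 43.9 and 53.8 CPM in CTRL and 7.83, 6.61, 6.49, 6.68 and 7.64 in WSD, with little spread in WSD. Its log2 fold change was -2.60 ± 0.20 (adjusted p = 9.19e-09, edgeR). The next step, reduction of the sterol's C14 double bond, can be done by Tm7sf2 or by Lbr, a protein of the inner nuclear membrane, and these parted. Tm7sf2 was the third most abundant of the 27 per length in CTRL, at 89.2 ± 8.43 TPM (a level per transcript length, scaled to a total of 1000000 in each library; SD, n = 5), and ranked 7 in WSD, at 25.1 ± 2.93. In CPM its log2 fold change was -2.36 ± 0.12 (adjusted p = 4.03e-11). Lbr ran from 4.58 to 6.09 CPM in CTRL and from 3.87 to 5.12 in WSD. Its log2 fold change was -0.23 ± 0.14 (adjusted p = 0.187) and turned to 0.24 on plain library sizes. The difference between the fold changes of these genes was not tested.

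Msmo1, Nsdhl and Hsd17b7 take off the C4 methyl groups. Msmo1 read 32.2, 19.7, 23.7, 20.9 and 31.4 CPM in CTRL and 7.19, 7.51, 7.96, 9.797 and 7.76 in WSD (log2 fold change -1.67 ± 0.25, adjusted p = 2.45e-05, edgeR). Nsdhl read 14.9, 10.5, 13.9, 12.8 and 15.9 and 4.88, 5.53, 4.59, 5.86 and 5.69 (log2 fold change -1.36 ± 0.21, adjusted p = 3.37e-05). Hsd17b7 read 44.1, 41.9, 50.7, 40.5 and 56.5 and 7.19, 9.25, 11.2, 11.6 and 7.85 (log2 fold change -2.31 ± 0.17, adjusted p = 3.53e-09). For each of these 3 the highest WSD library was below the lowest CTRL library.

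The list of enzymes ends with Ebp, Sc5d and Dhcr7. Ebp shifts the sterol's double bond, and it was the second most abundant of the 27 per length, at 141 ± 17.2 TPM in CTRL. It ran from 171 to 187 CPM in CTRL and from 106 to 149 in WSD. The log2 fold change was -0.51 ± 0.10 (adjusted p = 0.00029, edgeR), but on plain library sizes it was -0.05 (adjusted p = 0.568). Sc5d, the desaturase of the next step, ran from 120 to 143 CPM in CTRL and from 111 to 127 in WSD. Its log2 fold change was -0.14 ± 0.09 (adjusted p = 0.216), and 0.33 on plain library sizes, where it was called higher (adjusted p = 0.00738, edgeR). Dhcr7, which makes cholesterol from 7-dehydrocholesterol, fell from 27.8 to 40.1 CPM in CTRL to 12.95 to 17.4 in WSD (log2 fold change -1.08 ± 0.11, adjusted p = 1.52e-07).

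All 4 regulators were lower in WSD. Insig1, itself a target of SREBP, read 79.1, 53.6, 51.5, 50.9 and 48.2 CPM in CTRL and 18.4, 22.1, 18.4, 21.2 and 19.9 in WSD. With groups apart, its log2 fold change was -1.50 ± 0.29 (adjusted p = 0.000359, edgeR). Insig2, the other retention protein, was the most abundant of the 27 in both groups, at 326 ± 64.3 TPM in CTRL and 281 ± 27.9 in WSD. It read 524, 567, 429, 327 and 558 CPM in CTRL and 349.6, 321, 276, 340.5 and 302 in WSD. The groups overlapped, and its log2 fold change of -0.60 ± 0.14 (adjusted p = 0.00102) went to -0.13 (adjusted p = 0.426) on plain library sizes. Scap, the escort, read 130.2, 106, 177, 156 and 168 CPM in CTRL and 70.5, 74.8, 87.7, 78.5 and 67.9 in WSD (log2 fold change -0.96 ± 0.13, adjusted p = 4.29e-06). Srebf2 itself read 42.97, 45.4, 56.4, 49.4 and 50.6 and 29.8, 26.3, 26.2, 26.4 and 29.4 (log2 fold change -0.83 ± 0.10, adjusted p = 2.15e-06). No WSD library of Scap or Srebf2 reached a CTRL library. These are levels of mRNA and say nothing of how much SREBP2 protein was cut.

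Of the sterol-handling pair, 1 fell. Stard4 carries cholesterol between membranes in the cytosol. It read 26.8, 17.6, 27.2, 29.2 and 30.4 CPM in CTRL and 6.27, 8.79, 6.88, 7.33 and 6.83 in WSD, with groups apart and a log2 fold change of -1.86 ± 0.17 (adjusted p = 3.18e-08, edgeR). Tmem97, a membrane protein of lysosomal sterol handling also known as the sigma-2 receptor, ran from 46.1 to 60.5 CPM in CTRL and from 42.0 to 53.9 in WSD. Its log2 fold change was -0.25 ± 0.11 (adjusted p = 0.054). It passed in 7 alternatives, among them the fit without CTRL replicate 2 (-0.32, adjusted p = 0.0185), and read 0.21 on plain library sizes.

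**Figure D3:**
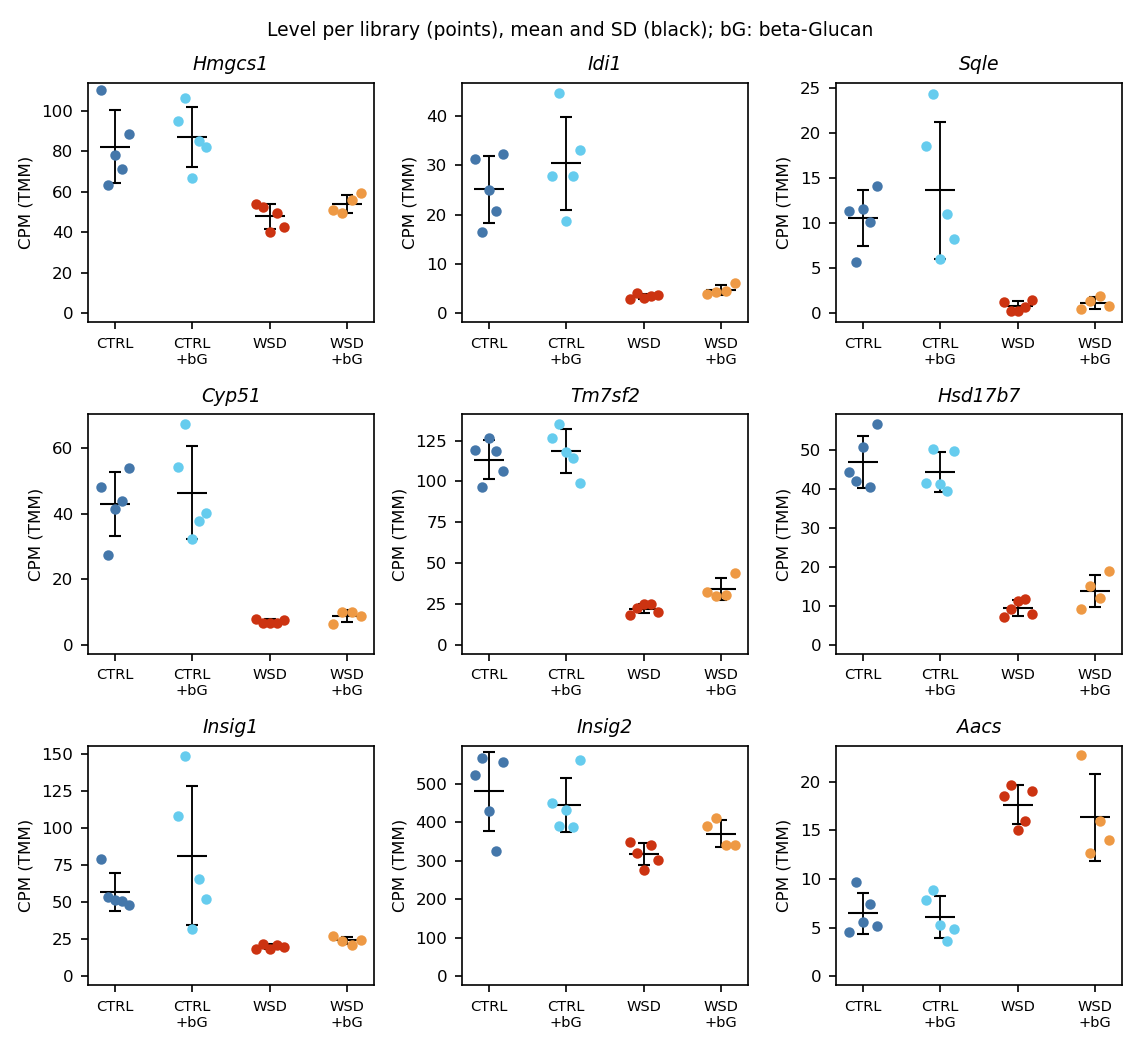
CPM on TMM-scaled library sizes (y axes, from 0) of 9 of the genes in each library (points, by group on the x axis), with the mean and SD in black. In all panels but Insig2 the CTRL and WSD libraries are apart, with Aacs higher in WSD and the others lower.

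Summed over the 27 genes, the level was 1690.0 ± 135 CPM in CTRL and 964 ± 50.9 in WSD (SD, n = 5 each). The ranges were 1519 to 1849 and 902 to 1032 and did not meet. On plain library sizes the sums were 1480.0 ± 92.4 and 1167 ± 65.5, and in TPM 981 ± 77.9 and 772 ± 47.8, so the sum was lower in WSD on all 3 scales by unequal amounts. Insig2 alone made up a large part: without it the CPM sums were 1209 ± 106 in CTRL and 646 ± 32.8 in WSD.

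Neighbouring pathways were taken from lists of other genes, to be read beside 27.1% of all tested genes lower and 26.0% higher in WSD. Of 10 genes for SREBP processing and sterol-regulated degradation, 3 were lower and 3 higher in WSD. Srebf1, the gene of the SREBP that favours fatty acid synthesis, rose by 1.71 ± 0.18 on the log2 scale (adjusted p = 2.39e-07, edgeR), from 42.0 ± 5.35 to 138 ± 35.1 CPM. Rnf145, a ubiquitin ligase, rose by 1.18 ± 0.09 (adjusted p = 3.74e-09). Paqr3 fell by 1.01 on the same scale. Of 10 fatty acid synthesis genes known as SREBP1 targets, 4 were lower and 4 higher, with Thrsp (2.92) and Scd1 (1.83) highest and Acacb (-1.52) and Elovl5 (-0.72) lowest. The fall of 20 of the 27 genes thus stood beside mixed values in the fatty acid list.

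Of 8 genes of acetyl-CoA supply and ketone bodies, 5 were lower and 1 higher. Acly, which makes cytosolic acetyl-CoA from citrate, had a log2 fold change of -0.60 ± 0.12. Oxct1, which uses ketone bodies and is low in hepatocytes, rose by 1.79 ± 0.20. Of 12 isoprenoid branch genes, 5 were lower and 3 higher, all within 0.58 of 0 on the log2 scale among the called (Rabggtb -0.58, Rabggta -0.35, Srd5a3 0.49, Coq2 0.46). Of 12 genes of sterol efflux, storage and disposal, 3 were lower and 5 higher. Abcg1, a sterol exporter, rose by 2.79 ± 0.17 and Soat1, which esterifies cholesterol in many non-hepatocyte cells, by 2.62 ± 0.18. Cyp7b1, an oxysterol hydroxylase of bile acid synthesis, had a log2 fold change of -2.86 ± 0.38 and Nceh1, a cholesteryl ester hydrolase, -0.82 ± 0.16.

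WSD+beta-Glucan was compared with WSD to ask whether beta-glucan went with a different level of these genes on the WSD background. Of the 27 genes, 1 was higher, Tm7sf2, and 0 were lower, against 0.0883% of tested genes higher and 0.302% lower. Tm7sf2 read 18.3, 22.5, 24.9, 24.6 and 19.96 CPM in WSD and 32.4, 29.8, 30.4 and 44.01 in WSD+beta-Glucan. All 4 WSD+beta-Glucan libraries were above all 5 WSD libraries, as for 2.59% of all tested genes, and all were below the lowest CTRL library, at 96.5 CPM. The log2 fold change was 0.63 ± 0.12 (adjusted p = 0.0276, edgeR). This call depended on single libraries: the adjusted p ran from 0.0149 to 0.168 (edgeR) when 1 library was left out. The call was lost without WSD+beta-Glucan replicate 1, 2 or 4 (log2 fold changes 0.65, 0.69 and 0.49) or WSD replicate 1, 2 or 5 (0.57, 0.64 and 0.60). Without all 3 libraries titled 37, 39 and 40 it was 0.65 ± 0.14 (adjusted p = 0.0464).

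No other member passed. Of the 27, 23 had a log2 fold change above 0, against 52.4% of all tested genes, and the median was 0.22, beside 0.01 over all genes. On plain library sizes 17 were above 0, with a median of 0.06, beside -0.15 over all genes. In that setting 10298 of the 13594 tested genes lay below 0. At an unadjusted p under 0.05 there were 6 members, against 15.6% of all tested genes: Tm7sf2, Hsd17b7, Scap, Ebp, Dhcr7 and, with a value below 0, Fdft1. Hsd17b7 read 7.19, 9.25, 11.2, 11.6 and 7.85 CPM in WSD and 9.11, 15.03, 12.03 and 18.8 in WSD+beta-Glucan, and the groups overlapped (log2 fold change 0.55 ± 0.18, adjusted p = 0.144). Scap read 70.5, 74.8, 87.7, 78.5 and 67.9 and 81.01, 90.3, 103 and 123 (log2 fold change 0.39 ± 0.13, adjusted p = 0.177). Ebp read 122, 119, 136, 149 and 106 and 173, 144, 128 and 169.8 (log2 fold change 0.28 ± 0.11, adjusted p = 0.215). WSD+beta-Glucan replicate 4 was the highest of its group for 13 of the 27 genes, against 25.9% of all tested genes, and replicate 1 the lowest for 15, against 27.68%.

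Sqle, Idi1 and Cyp51 had the largest falls in WSD against CTRL. In WSD+beta-Glucan replicates 1 to 4 Sqle read 0.494, 1.36, 1.904 and 0.758 CPM, Idi1 3.95, 4.33, 4.5 and 6.11 and Cyp51 6.26, 10.1, 9.82 and 8.63. Their log2 fold changes against WSD were 0.55 ± 0.58, 0.47 ± 0.24 and 0.31 ± 0.21 (adjusted p = 0.679, 0.358 and 0.504, edgeR). Aacs read 22.7, 12.7, 16.01 and 13.98 CPM (log2 fold change -0.11 ± 0.23, adjusted p = 0.847). Srebf2 (0.11 ± 0.11) and Insig1 (0.28 ± 0.31) did not pass either. Fdft1 had the lowest fold change, -1.75 ± 0.67 (adjusted p = 0.224), and rests on the transcript at 0 described above. Outside the 27 genes, the sterol efflux and storage list had 2 of 12 genes lower, Abcg1 (-0.91 ± 0.16) and Soat1 (-0.90 ± 0.17), each at an adjusted p of 0.0261 (0.0331 and 0.058 without the libraries titled 37, 39 and 40), and the 4 other neighbouring lists had 0 of their genes called. In this comparison the list medians were -0.75 for stellate cell and fibroblast markers, with 2 of 6 under -1, -0.66 for macrophage and monocyte markers, with 1 of 10 under -1, -0.28 for T and B cell, -0.21 for endothelial, 0.11 for cholangiocyte and 0.21 for hepatocyte markers. None of these 6 lists had a gene called by edgeR, and calls by DESeq2 and limma-voom for them are not given here. Summed macrophage and monocyte markers were nevertheless apart, at 665 to 867 CPM in WSD and 469 to 553 in WSD+beta-Glucan. The summed ranges of the other lists overlapped. The part of that shift in the values of the 27 genes was not tested.

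CTRL+beta-Glucan was compared with CTRL, the same question on the control background. No member was called (edgeR; 0 at an unadjusted p under 0.05, against 5.7% of all tested genes, and 0 called by DESeq2 or limma-voom), against 0.00736% of tested genes higher and 0.0% lower. Of the 27, 22 had a log2 fold change above 0, against 50.8% of all genes, with a median of 0.11. Without the libraries titled 37, 39 and 40 only 7 were above 0 and the median was -0.06. In that fit 7156 of the 13789 tested genes lay below 0. Insig1 showed the largest value, 0.52 ± 0.28 (adjusted p = 0.854). It read 79.1, 53.6, 51.5, 50.9 and 48.2 CPM in CTRL and 108, 149, 32.1, 65.7 and 52.1 in CTRL+beta-Glucan, where replicates 1 and 2 were highest. Without the 3 libraries its log2 fold change was -0.18. Msmo1 (0.41 ± 0.24) and Nsdhl (0.37 ± 0.21) turned to -0.07 and -0.15 in the same fit.

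CTRL+beta-Glucan replicate 2 had the highest level of its group for 20 of the 27 genes, against 14.01% of all tested genes. CTRL replicate 2 was the lowest of its group for 16, against 21.3%, and CTRL+beta-Glucan replicate 3 also for 16, against 18.15%. Sqle spread from 6.07 to 24.3 CPM in CTRL+beta-Glucan. Fdft1 had the highest coefficient of variation there, 66.7%. Over the 27 genes the median coefficient of variation was 12.4% in WSD, 16.6% in WSD+beta-Glucan, 17.8% in CTRL+beta-Glucan and 19.7% in CTRL, beside 12.5%, 12.8%, 17.9% and 15.5% over all tested genes.

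**Figure D4:**
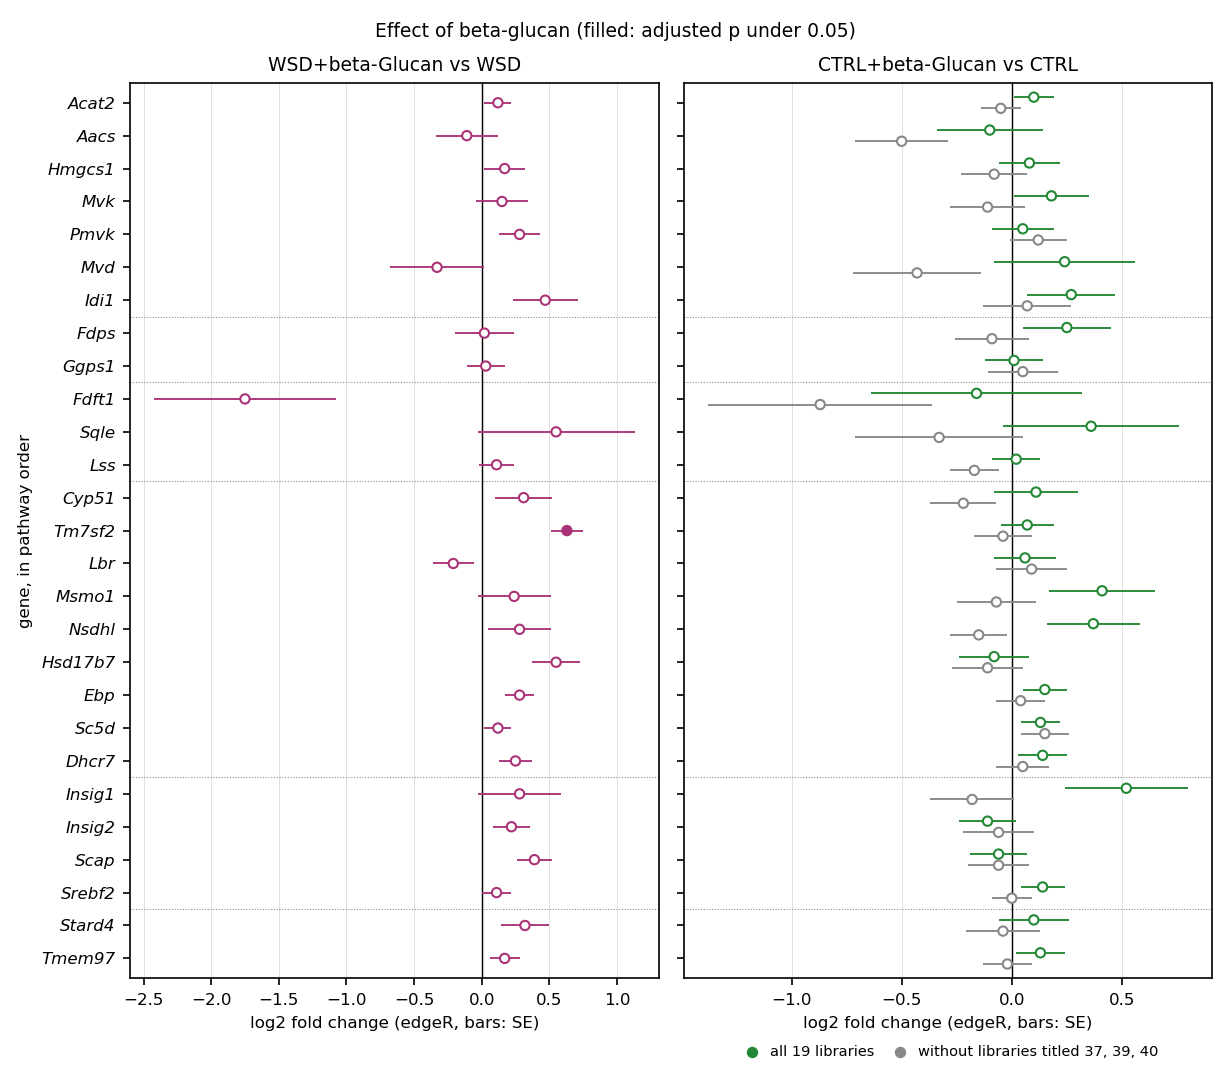
Log2 fold change (x axis, bars are the SE from edgeR) of each gene (y axis, in pathway order) for WSD+beta-Glucan against WSD (left) and for CTRL+beta-Glucan against CTRL (right), the latter also without the libraries titled 37, 39 and 40. Tm7sf2 on the left is the 1 filled point, with an adjusted p under 0.05. On the right 22 genes lie above 0 with all libraries and 7 without the 3, where 7156 of the 13789 tested genes lie below 0. On the left 23 lie above 0, or 17 on plain library sizes, where 10298 of the 13594 tested genes lie below 0.

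The difference between both beta-glucan effects, on WSD less on CTRL, was tested as an interaction. No member was called (edgeR; 3 at an unadjusted p under 0.05, against 13.7% of all tested genes, and 0 called by DESeq2 or limma-voom), against 0.0% of tested genes higher and 0.00736% lower. Those 3 were Tm7sf2 (0.57 ± 0.17, adjusted p = 0.209), Hsd17b7 (0.63 ± 0.24, adjusted p = 0.284) and Scap (0.45 ± 0.19, adjusted p = 0.307). Without the libraries titled 37, 39 and 40 they were 0.69, 0.81 and 0.54 (adjusted p = 0.382, 0.387 and 0.447, edgeR). Members above 0 numbered 16 of 27, against 51.8% of all tested genes. Without those libraries 23 members were above 0, where 6464 of the 13789 tested genes lay below 0. On plain library sizes 9 were above 0, where 9579 of the 13594 tested genes lay below 0. A larger effect of beta-glucan on the WSD background than on the control background was therefore not shown for any of these genes.

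WSD+beta-Glucan was compared with CTRL+beta-Glucan to give the WSD effect in the presence of beta-glucan. It shares no library with the comparison of WSD and CTRL, though 1 estimate of the spread was fitted to all 19 libraries. Of the 27 genes, 21 were lower and 1 was higher, against 15.2% of tested genes lower and 19.1% higher. On plain library sizes 16 were lower and 1 higher, beside 385 lower and 5137 higher among the 13594 tested genes. The number above 0 was 2, against 48.5% of all tested genes. On plain library sizes it was 6, where 2618 of the 13594 tested genes lay below 0. All WSD+beta-Glucan libraries lay below all CTRL+beta-Glucan libraries for 18 of the 27 genes, against 10.7% of all tested genes. The median was -0.97, beside -0.01 over all genes. Without the libraries titled 37, 39 and 40 there were 16 lower and 1 higher and the median was -0.79. In that fit 1240 of 13789 tested genes were lower and 2174 higher. Cell type markers moved with this comparison as well: 5 of 10 hepatocyte markers were lower (list median -0.47), and higher were 9 of 10 macrophage and monocyte (1.95), 5 of 6 stellate cell and fibroblast (2.0), 4 of 5 cholangiocyte (2.30, with the other 1 lower), 1 of 6 endothelial (0.43) and 2 of 6 T and B cell markers (0.78). Their part in the values of the 27 genes was not tested.

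Fdft1 (-4.14 ± 0.66), Sqle (-3.56 ± 0.51), Idi1 (-2.68 ± 0.24) and Cyp51 (-2.40 ± 0.22) had the lowest log2 fold changes. Without the libraries titled 37, 39 and 40, Fdft1 was at -3.24 ± 0.68, Idi1 at -2.40 ± 0.25 and Cyp51 at -1.94 ± 0.18. Sqle read 18.5, 24.3, 6.07, 10.99 and 8.21 CPM in CTRL+beta-Glucan and 0.494, 1.36, 1.904 and 0.758 in WSD+beta-Glucan, and without those 3 libraries its value was -2.64 ± 0.48 (adjusted p = 0.00107, edgeR). Tm7sf2 stood at -1.80 ± 0.13 (-1.66 without the 3 libraries) and Hsd17b7 at -1.68 ± 0.18 (-1.50), beside -2.36 ± 0.12 and -2.31 ± 0.17 for WSD against CTRL. Tm7sf2 read 127, 135, 118, 115 and 99.2 CPM in CTRL+beta-Glucan, all far above the WSD+beta-Glucan libraries. Aacs was again the gene called higher (1.43 ± 0.24, adjusted p = 0.000188).

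Mvd and Lbr were called lower here (-1.17 ± 0.35, adjusted p = 0.0152, and -0.49 ± 0.15, adjusted p = 0.0168, edgeR) and not for WSD against CTRL, while Insig2 was not called here (-0.26 ± 0.14, adjusted p = 0.165). Those differences are the interaction above, in which none of the 3 passed. Mvd read 6.35, 8.13, 2.64, 3.29 and 2.67 CPM in CTRL+beta-Glucan, with replicates 1 and 2 highest, and 1.65, 1.699, 3.03 and 1.73 in WSD+beta-Glucan. Without the libraries titled 37, 39 and 40 its value was -0.41 (adjusted p = 0.388). In that fit Mvk (-0.44, adjusted p = 0.0938), Lbr (-0.45, adjusted p = 0.0779), Ebp (-0.33, adjusted p = 0.0582) and Scap (-0.41, adjusted p = 0.0678) also lost their calls. Mvd lost it too without CTRL+beta-Glucan replicate 2 alone (-0.86, adjusted p = 0.0523), and Lbr without WSD+beta-Glucan replicate 1 (-0.42, adjusted p = 0.0594) or 4 (-0.43, adjusted p = 0.053).

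Summed over the 27 genes, the level was 1762 ± 208 CPM in CTRL+beta-Glucan (SD, n = 5) and 1124 ± 46.6 in WSD+beta-Glucan (n = 4), and 1638 and 1126 without the libraries titled 37, 39 and 40. Each WSD+beta-Glucan library, from 1077 to 1188, lay above the highest WSD library, 1032, and below the lowest library of either control group, 1519. On plain library sizes the sums were 1167 ± 65.5 in WSD and 1219 ± 32.6 in WSD+beta-Glucan, with ranges of 1070.0 to 1233 and 1185 to 1263 that overlapped. In TPM they were 772 ± 47.8 and 826 ± 51.7, with ranges of 725.1 to 851.5 and 776.0 to 878.1 that overlapped. The summed CPM of the 21 enzymes alone ran from 431.8 to 503.9 in WSD and from 500.3 to 599.5 in WSD+beta-Glucan, also with overlap.

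**Figure D5:**
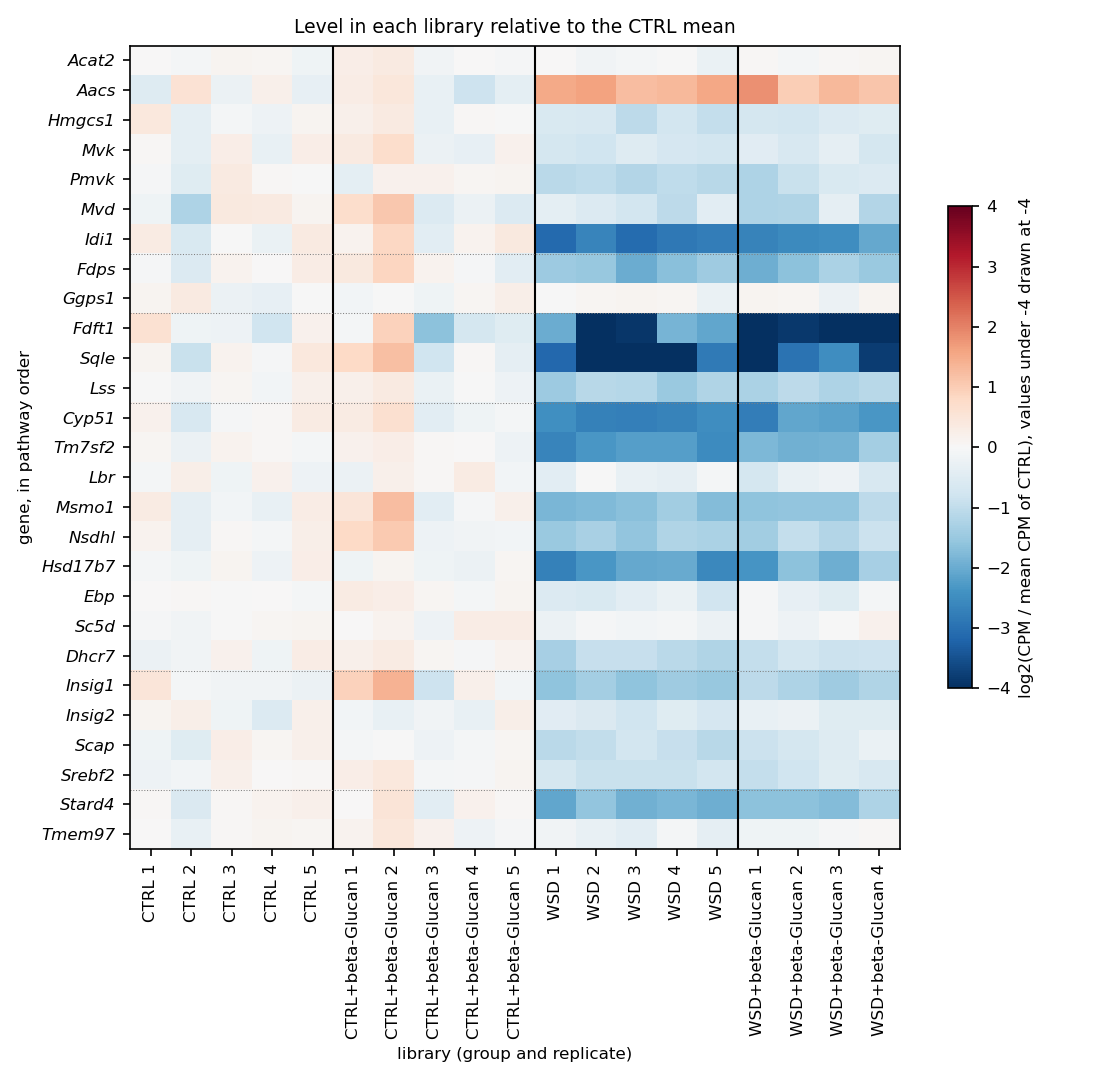
Level of each gene (rows, in pathway order) in each of the 19 libraries (columns, by group and replicate) as log2 of its CPM over the mean CPM of CTRL, from blue (lower) to red (higher), with values under -4 drawn at -4. Most rows are blue in the 9 libraries of WSD and WSD+beta-Glucan, Aacs is red there, and CTRL+beta-Glucan replicates 1 and 2 are redder than the other 3 of their group in 17 rows.

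Compared per length, Insig2 and Ebp ranked first and second of the 27 genes in both CTRL and WSD. Insig2, Ebp, Tm7sf2 and Sc5d led in CTRL, at 326, 141, 89.2 and 67.2 TPM, and Insig2, Ebp and Sc5d in WSD, at 281, 134 and 80.1, where Tm7sf2 stood at rank 7. At the bottom stood Lbr (2.17 TPM), Aacs (2.25) and Mvd (2.43) in CTRL, and Sqle (0.423) in WSD, where Aacs had moved from rank 26 to rank 13. Idi1 moved from rank 16 to rank 24. TPM values carry no TMM scaling, so the ranks compare genes within a group.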

How the data were processed

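RNA sequencing was done on 19 stranded mRNA libraries of mouse liver (TruSeq kit, per the labels' protocols). Per the submitters' processing notes the tools named are Salmon 1.10.1 and DESeq2 1.38.3, and the build is GRCm39; the transcript set and library type option are not given in the sources used here. The deposited files hold estimated counts per transcript, not scaled by the authors between libraries, TPM values scaled by effective length within a library, and the effective lengths (another unit, in bases) that the authors deposited with them.

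Transcripts were matched by identifier to GENCODE M21 (115977 of 116546, 99.51%; the other 569 held 0.0623% to 0.1095% of a library's reads), estimated counts were summed to genes and rounded. edgeR 4.0.16 (R 4.3.3) was run on all 19 libraries with filterByExpr, TMM, a mean per group and the quasi-likelihood F test. Within each of 5 contrasts the p-values of 13594 genes were adjusted (Benjamini-Hochberg), with a threshold of 0.05. The SE is the absolute log2 fold change over the root of F. Libraries held 17253823 to 23450232 estimated reads, which sets the counting error only: no molecular identifiers mark copies made by PCR. The labels give the groups; replicate numbers follow the order of deposition. The script was tested on simulated counts.

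The members and lists were chosen with earlier results of these data known. All 27 members are named. From each other pathway list the 2 largest rises and falls past the threshold for WSD against CTRL are named, and any gene past it for WSD+beta-Glucan against WSD; some genes that this rule names are not reported here. Alternatives were RLE size factors, no filter, DESeq2 1.42.0, limma-voom (limma 3.58.1), each pair of groups alone, an effective length offset, a term for or removal of the libraries titled 37, 39 and 40, a 1.5-fold rule, and each library left out. Adding reads of near-identical copies (blastn, at least 90% identity over 300 bases) and plain library sizes were chosen after seeing the data.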

Additional observations from a re-analysis of the deposited data

Results flagged for a closer look

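Each of the 27 genes and their summed level was checked in each of the 4 groups for a library set apart from the rest of its group, by Dixon's gap test at the 95% level. Of these 112 checks, 7 stood out, all of single genes, and chance gives about 1 in 20. In CTRL, replicate 2 was low for Stard4, at 17.55 CPM against 26.83 in the next library, and for Tmem97, at 46.13 CPM against 57.59. CTRL replicate 1 was high for Insig1, at 79.07 CPM against 53.56. In CTRL+beta-Glucan, replicate 1 was low for Pmvk, at 14.5 CPM against 20.12. In WSD+beta-Glucan, replicate 3 was high for Mvd, at 3.029 CPM against 1.727, and low for Ggps1, at 4.543 CPM against 5.606. Replicate 4 of that group was high for Msmo1, at 12.42 CPM against 8.621. No WSD library stood out for any of the 27 genes.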

How the results depend on the processing

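No paired analysis was possible because the labels give no replicate numbers shared between groups. Of 87 gene results followed over the alternatives, 58 kept their direction and their side of the threshold in all of them. For CTRL+beta-Glucan against CTRL only Insig1, Msmo1 and Nsdhl were followed. For the difference between both beta-glucan effects only Tm7sf2, Hsd17b7 and Scap were.

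The number of members higher in WSD than in CTRL was 4 on plain library sizes and 2 with reads of copies added, and with copies added it was also 2 for WSD+beta-Glucan against CTRL+beta-Glucan. With copies added, the gene called beside Aacs was Acat2 counted together with Acat3, which holds most of those reads. The single higher member for WSD+beta-Glucan against WSD became 0 to 1 when 1 library was left out. Members above 0 for CTRL+beta-Glucan against CTRL became 7 without the libraries titled 37, 39 and 40, where 7156 of the 13789 tested genes lay below 0. For the difference between both beta-glucan effects the members above 0 became 9 on plain library sizes, where 9579 of the 13594 tested genes lay below 0. Summed levels changed with the unit, to 1480, 1548, 1167 and 1219 CPM on plain library sizes and 981, 1011, 771.8 and 826.3 in TPM, for CTRL, CTRL+beta-Glucan, WSD and WSD+beta-Glucan.

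Some signs changed. For WSD against CTRL, plain library sizes gave Acat2 0.37, Ggps1 0.46, Lbr 0.24, Sc5d 0.33 and Tmem97 0.21, and copies added gave Acat2 0.49. Ggps1 was 0.03 with RLE and DESeq2, 0.01 without the filter and with limma-voom, 0.04 with the groups alone, 0.0016 without the 3 libraries, and -0.08 to 0.10 with 1 library left out. For WSD+beta-Glucan against WSD, plain library sizes gave Acat2 -0.04, Fdps -0.13, Ggps1 -0.13, Lss -0.05, Sc5d -0.04 and Srebf2 -0.04. Fdps was -0.0012 with RLE, -0.0025 with DESeq2, -0.04 with the term for the 3 libraries and -0.09 to 0.13 with 1 left out, Ggps1 -0.03 to 0.11 with 1 left out, and Lss -0.14 with the length offset. For WSD+beta-Glucan against CTRL+beta-Glucan, plain library sizes gave Acat2 0.23, Sc5d 0.15, Insig2 0.04 and Tmem97 0.09, copies added Acat2 0.40, and removal of the 3 libraries Acat2 0.08 and Ggps1 -0.04; Ggps1 was -0.02 to 0.10 with 1 left out. For CTRL+beta-Glucan against CTRL, Insig1 was -0.01 with the term, and without the 3 libraries Insig1 was -0.18, Msmo1 -0.07 and Nsdhl -0.15. Further genes changed sign in that fit, as the number above 0 went from 22 to 7. The causes were not tested.

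Over all genes, the calls for WSD+beta-Glucan against WSD were 41 lower and 12 higher with edgeR, 342 and 94 with DESeq2, 353 and 53 with limma-voom, and 283 and 11 on plain library sizes. Depth limits Sqle, Mvd and Fdft1 most, the genes with the fewest reads.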

Other observations

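Transcript shares within the listed genes were estimated by the authors' quantification and are given as values, chosen after they were seen and not tested. Insig2-202, a protein-coding transcript of Insig2, held 9.94% ± 2.65 of the gene's reads in WSD, 11.4% ± 2.86 in WSD+beta-Glucan, 10.9% ± 2.30 in CTRL+beta-Glucan and 15.1% ± 1.98 in CTRL (SD). Lss-204, annotated as a retained intron, held 31.1% ± 11.6 of the Lss reads in WSD, 36.3% ± 5.75 in WSD+beta-Glucan, 30.5% ± 2.13 in CTRL+beta-Glucan and 26.9% ± 5.42 in CTRL, and the WSD libraries, from 18.1% to 44.0%, overlapped the other 3 groups. Tm7sf2-201 held 91.2% ± 4.08 of the Tm7sf2 reads in WSD, 94.4% ± 1.19 in WSD+beta-Glucan, 96.1% ± 1.55 in CTRL+beta-Glucan and 97.6% ± 0.59 in CTRL.

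Srebf1, outside the 27 genes, read 42.0 ± 5.35 CPM in CTRL and 69.1 ± 9.15 in CTRL+beta-Glucan (SD, n = 5 each). Its ranges were 36.0 to 48.3 and 55.6 to 77.5, and it was not called. The log2 fold change was 0.72 ± 0.17 (adjusted p = 0.554, edgeR), and 0.60 (adjusted p = 0.364) without the libraries titled 37, 39 and 40. In WSD+beta-Glucan it read 101 ± 28.6 CPM, against 138 ± 35.1 in WSD, with a log2 fold change of -0.45 ± 0.18 (adjusted p = 0.246), and -0.66 (adjusted p = 0.104) without the 3 libraries. The difference between both effects was -1.17 ± 0.25 (adjusted p = 0.128), and -1.26 (adjusted p = 0.155) without them.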
